A study of Mus musculus with 8 samples.

Results

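The SLAM family receptors and the adaptor SAP were followed through the loss of Nfil3 in 2 progenitor populations of mouse bone marrow. The set holds 8 genes: 7 receptor genes (Cd244a, Slamf1, Slamf6, Slamf7, Cd48, Ly9 and Cd84) and Sh2d1a, which encodes SAP. It was chosen by gene symbol. On the arrays, 12 probe sets were annotated to a single one of these symbols and covered 6 of the 8 genes, out of 17097 genes with such a probe set. Slamf7 and Cd48 had no probe set annotated to them and were not analysed here. All 6 measured genes passed the filter on dim values and were among the 11583 genes tested. Slamf1 and Sh2d1a passed it only through the KO preproNK arrays, so a difference of that group was built into their passing.

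RNA from sorted cells was hybridised to 8 arrays, 2 for each of 4 groups. The groups were wild type (WT) and Nfil3 knockout (KO) all-lymphoid progenitors (ALP), and WT and KO prepro NK cells (preproNK). Every group, the WT controls included, came from lineage-depleted marrow of mice that carry the ID2-GFP reporter, in which green fluorescent protein marks activity of the Id2 gene. The series asked how the need for Nfil3 differs along natural killer (NK) cell development. The labels give no age of the mice, no knockout allele and no number of mice per sample, so p-values measure the spread between these arrays, which may be technical. Replicates 1 and 2 carry 2 different dates in the sample titles, which do not say what step was dated. Each date holds 1 array of every group.

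SLAM family receptors are immunoglobulin-like proteins on blood cells. Most bind the same receptor on a neighbouring cell, while Cd244a (2B4) binds Cd48. The tails of most of them, not of Cd48, carry tyrosine motifs that can recruit SAP. This small SH2 domain protein brings in the kinase Fyn and turns the receptors towards activation. In NK cells and unconventional T cells this pathway shapes cytotoxicity and development, and in marrow some of the receptors are used to sort stem and progenitor cells.

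The 7 receptor genes lie together on mouse chromosome 1, in the order Cd244a, Ly9, Slamf7, Cd48, Slamf1, Cd84 and Slamf6, per the RefSeq annotation of GRCm38.p6. Only 1 other protein-coding gene lies among them, between Cd48 and Slamf1. Sh2d1a lies on chromosome X. RefSeq promoters (250 bases before to 50 after the start site) were at hand for 6 of the 8 genes, not for Ly9 or Sh2d1a. Those of Cd244a, Slamf1 and Cd84 are printed because these neighbours differed most between the populations and in opposite directions. Capitals mark matches on either strand to cagctg (an E-box bound by E proteins), tgtggt (Runx factors) or aggaag (Ets factors). All 3 genes are on the plus strand, at chr1:171558943-171559242, chr1:171766882-171767181 and chr1:171839447-171839746.
Cd244a promoter: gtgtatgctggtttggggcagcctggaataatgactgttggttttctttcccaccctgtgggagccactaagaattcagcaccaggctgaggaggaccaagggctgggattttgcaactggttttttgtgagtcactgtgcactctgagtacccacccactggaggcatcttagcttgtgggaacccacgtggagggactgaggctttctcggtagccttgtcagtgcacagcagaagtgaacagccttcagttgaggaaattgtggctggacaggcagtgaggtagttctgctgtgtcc
Slamf1 promoter: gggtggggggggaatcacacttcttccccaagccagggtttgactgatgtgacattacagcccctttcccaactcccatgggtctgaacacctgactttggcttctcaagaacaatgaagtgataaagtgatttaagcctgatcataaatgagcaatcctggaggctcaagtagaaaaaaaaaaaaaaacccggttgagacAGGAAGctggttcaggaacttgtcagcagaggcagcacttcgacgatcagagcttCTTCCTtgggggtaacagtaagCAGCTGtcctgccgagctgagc
Cd84 promoter: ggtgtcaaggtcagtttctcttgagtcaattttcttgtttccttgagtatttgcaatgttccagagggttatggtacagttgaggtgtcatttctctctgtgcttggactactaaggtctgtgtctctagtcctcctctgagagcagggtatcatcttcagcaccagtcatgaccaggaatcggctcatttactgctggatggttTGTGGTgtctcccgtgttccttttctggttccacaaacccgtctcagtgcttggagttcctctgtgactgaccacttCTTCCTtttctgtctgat

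In the Slamf1 promoter, aggaag matched at base -49 and, on the other strand, at base 7, and cagctg at base 29, counted from 1 at the start site. In the Cd84 promoter, tgtggt matched at base -45 and aggaag, on the other strand, at base 33. The Cd244a window held none of these letters. The Nfil3 sites ttatgtaa and ttacgtaa and the T-box site aggtgtga, searched on both strands, were in none of the 6 promoters. Of 32851 promoters of this length, 16.3% held cagctg, 16.8% tgtggt, 35.4% aggaag, 0.938% ttatgtaa, 0.119% ttacgtaa and 1.28% aggtgtga.

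Nfil3 was lower on all 4 KO arrays than on all 4 WT arrays. Replicate 1 first, as throughout, its log2 level in WT ALP was 6.89 and 5.50, KO ALP 3.41 and 4.15, WT preproNK 4.75 and 4.74 and KO preproNK 3.84 and 3.57. It is not known here whether its probe set lies in the deleted part. Replicate 2 of WT preproNK stood apart. Its values were the narrowest (SD 1.39 log2 over all probe sets, 1.55 to 1.88 on the others), and it correlated with its own group's other array at 0.62 across tested genes, below the 0.96 of the KO preproNK pair. It is called the narrow array below. It correlated higher, at 0.75, with replicate 2 of WT ALP, whose SD of 1.55 was the next narrowest. That ALP array stays in the WT differences between preproNK and ALP given without the narrow array. Leaving out the other WT preproNK array keeps the narrow array as the only one of its group, with its spread taken from the other groups.

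The populations carried the markers their labels imply in part. Early lymphoid progenitor markers (6 of 7 measured) had a mean log2 level of 6.22 to 7.17 in WT ALP and 6.84 to 7.32 in KO ALP, against 3.76 to 3.96 in WT preproNK and 3.33 to 3.54 in KO preproNK. NK markers (9 of 9 measured) were at 4.01 to 4.35, 3.95 to 4.18, 5.10 to 5.30 and 6.38 to 6.48 in the same order of groups, and Ncr1, which encodes NKp46, was below the array median on all 8 arrays. T lineage markers (9 of 10 measured) were at 4.52 to 4.64, 4.43 to 4.54, 5.996 to 6.81 and 8.37 to 8.64, and none of the 9 was below the median on all arrays. Myeloid markers (6 of 6 measured) were at 5.89 to 6.01, 5.92 to 6.20, 5.01 to 6.25 and 5.95 to 6.17. Dendritic markers (4 of 5 measured) were at 5.85 to 6.31, 5.53 to 5.96, 5.41 to 5.45 and 4.96 to 6.42. Mast cell and megakaryocyte markers (5 of 5 measured) were at 4.01 to 4.47, 4.01 to 4.29, 4.97 to 5.16 and 4.13 to 5.20. In KO cells 8 of the 9 T lineage markers and 4 of the 8 tested NK markers were called higher in preproNK than in ALP, and 0 of either list were called between KO and WT preproNK. Over all tested genes 1.22% were called higher in KO preproNK than in KO ALP, and 0% were called between KO and WT preproNK. Summed over each list, T lineage and NK markers were highest on the KO preproNK arrays, although single genes such as Cd8a (mean 5.78 in KO and 6.10 in WT preproNK) and Eomes (4.42 and 4.88) were not, and Thy1 was also called in WT (4.09, limma adjusted p = 0.0401). The part of these markers in the results below was not tested. In bulk RNA, more cells that express a gene and more of its RNA per cell cannot be told apart.

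**Figure D1:**
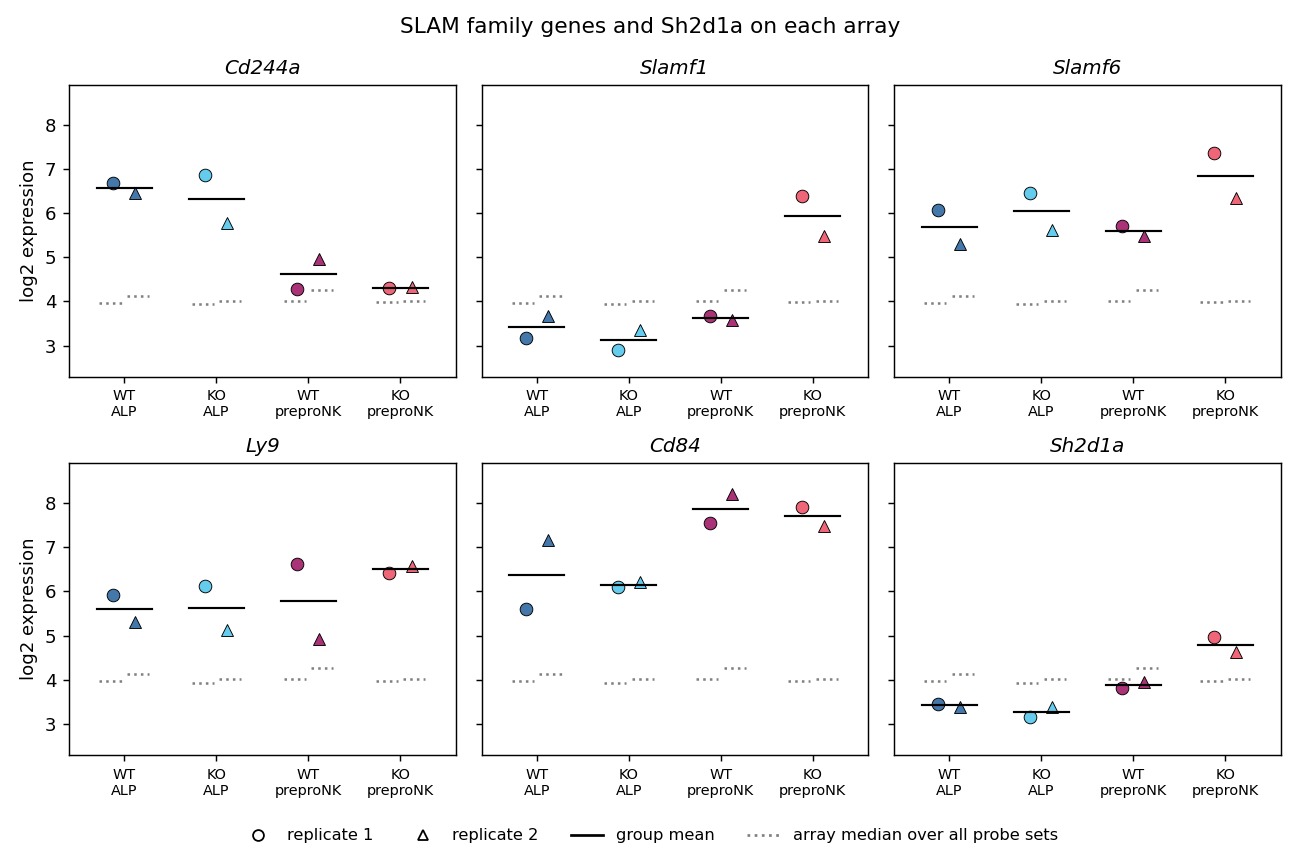
Log2 expression of the 6 measured genes (vertical axis, 1 probe set per gene) on each of the 8 arrays, by group; circles are replicate 1, triangles replicate 2, bars group means and dotted lines each array's median over all probe sets. Cd244a was high in ALP and Cd84 in preproNK, in both genotypes, while Slamf1 and Sh2d1a lay above the dotted lines only on the KO preproNK arrays.

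Cd244a, the receptor 2B4 of NK cells and early progenitors, was the member that fell from ALP to preproNK. On the log2 scale, WT ALP gave 6.69 and 6.46, KO ALP 6.86 and 5.78, WT preproNK 4.29 and 4.96 and KO preproNK 4.29 and 4.34. All 4 ALP arrays lay above all 4 preproNK arrays, within each population the genotypes overlapped, and all values were above the array medians. Averaged over the genotypes, the preproNK level was lower by a log2 difference of -1.98 (SE 0.33), a 3.93-fold lower level, which was called by limma (adjusted p = 0.02). It was -2.48 in the replicate 1 arrays and -1.47 in the replicate 2 arrays.

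Each genotype gave a lower mean in preproNK. The log2 difference between preproNK and ALP was -1.95 (SE 0.46, limma adjusted p = 0.251) in WT and -2.004 (SE 0.46, limma adjusted p = 0.0937) in KO, neither called. Blocking on the replicate number, the KO difference was called (limma adjusted p = 0.0461) and so was the WT difference once its narrow array was also left out (-2.49, limma adjusted p = 0.0126). The interaction was -0.05, with a 95% interval from -1.56 to 1.45, so an unequal fall of up to that size was not excluded. The other Cd244a probe set gave a mean difference of -1.54, and there 4 of the 8 arrays were below their median: WT ALP replicate 2, WT preproNK replicate 1 and both of KO preproNK. That difference is thus against values near background. The mean call was lost with both probe sets averaged (limma adjusted p = 0.0875) and without any 1 of WT ALP replicate 1 or 2, KO ALP replicate 1 or KO preproNK replicate 1 or 2 (limma adjusted p 0.059 to 0.138).

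Slamf1, the self-binding receptor CD150, was near background everywhere except in KO preproNK. The log2 levels were, for WT ALP, 3.18 and 3.67, KO ALP 2.89 and 3.36, WT preproNK 3.68 and 3.58 and KO preproNK 6.40 and 5.48. The first 6 values lay below the array medians, and both KO preproNK arrays stood above all of them. In KO cells the level rose from ALP to preproNK by a log2 difference of 2.81 (SE 0.43, limma adjusted p = 0.026). Set against the array medians, since both KO ALP arrays were below them, this was an at least 3.91-fold higher level by the means of this probe set. The replicate 1 and 2 pairs gave 3.50 and 2.12, and the other probe sets 1.64 and 0.22. The call was lost without any 1 of the 4 KO arrays (limma adjusted p 0.12 to 0.285) and with all probe sets of a gene averaged (limma adjusted p = 0.0533).

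In WT cells Slamf1 differed by 0.20 between preproNK and ALP (95% interval -0.80 to 1.21), and the mean over both genotypes was called (1.51, SE 0.31, limma adjusted p = 0.0433). That mean call was lost without any 1 array other than those of WT preproNK (limma adjusted p 0.0895 to 0.223), and with array weights, no filter or averaged probe sets. The knockout effect within preproNK was 2.31 (SE 0.43), with 2.72 and 1.91 in the 2 replicate pairs, and was not called (limma adjusted p = 0.308). Since both WT preproNK values are below the array medians, it is at least 3.48-fold by the means of this probe set, with the spread between arrays not counted. Without the narrow array it was 2.26 and not called (limma adjusted p = 0.37). With the narrow array as the only WT preproNK sample it was called (2.36, limma adjusted p = 0.0207), in a fit that called 2532 genes. In ALP the knockout effect was -0.30 (95% interval -1.31 to 0.71), and the interaction was 2.61 (SE 0.61, limma adjusted p = 1). The 3 probe sets of Slamf1 disagreed in size. The second was at 4.76 and 4.58 in KO preproNK and at 2.71 to 3.73 elsewhere, while the third stayed between 2.75 and 3.38 and below the median on all 8 arrays. The knockout effect in preproNK was 1.24 on the second and -0.13 on the third.

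Sh2d1a, the gene of the adaptor SAP, followed the same order of groups at low signal. The arrays of WT ALP read 3.46 and 3.38, KO ALP 3.16 and 3.39, WT preproNK 3.82 and 3.95 and KO preproNK 4.96 and 4.62. Both KO preproNK arrays were above every other array, the WT preproNK arrays were above all ALP arrays, and the 6 arrays outside KO preproNK were below their medians. In KO cells preproNK differed from ALP by 1.52 (SE 0.34, limma adjusted p = 0.0913), or at least 1.77-fold against the array medians. The call was made when blocked on the replicate number (limma adjusted p = 0.0411) and without either WT preproNK array (limma adjusted p = 0.036 each). In WT cells the difference was 0.47 (95% interval -0.33 to 1.27). KO and WT preproNK differed by 0.90 (95% interval 0.11 to 1.70), at least 1.57-fold against the array medians, with 1.14 and 0.67 in the replicate pairs, and this was not called (limma adjusted p = 0.613). The gene is X-linked, and the level of Xist, a transcript of the inactive X of females, was 7.94, 9.30 and 8.78 on replicate 2 of WT ALP, KO ALP and KO preproNK and 3.10 to 4.204 on the other arrays. Between the replicates, Sh2d1a was higher on the array with more Xist in KO ALP and on the one with less Xist in KO preproNK and WT ALP. A part of sex in these levels was not tested.

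Cd84, a self-binding receptor of lymphoid and myeloid cells, was higher in preproNK of both genotypes. The 2 values of WT ALP were 5.61 and 7.15, KO ALP 6.10 and 6.21, WT preproNK 7.55 and 8.19 and KO preproNK 7.92 and 7.47. All 4 preproNK arrays were above all 4 ALP arrays, and the genotypes overlapped in both populations. The mean log2 difference was 1.52 (SE 0.39), 2.86-fold, not called with all arrays (limma adjusted p = 0.0891) but called when blocked on the replicate number (limma adjusted p = 0.0351), with both probe sets averaged (limma adjusted p = 0.0137), and without WT ALP replicate 2 or WT preproNK replicate 1 (limma adjusted p = 0.0429 and 0.0408), the latter with the narrow array as the only one of its group. The replicate pairs gave 1.88 and 1.15. Without the narrow array the difference was 1.36 and not called (limma adjusted p = 0.0919), and 6 of the 8 fits that leave out 1 array did not call it. With all arrays it was 1.49 (95% interval 0.22 to 2.76) in WT and 1.54 (95% interval 0.28 to 2.81) in KO. Neither was called (limma adjusted p = 0.535 and 0.321). The knockout effect was -0.23 (95% interval -1.49 to 1.04) in ALP and -0.18 (95% interval -1.44 to 1.09) in preproNK. The other probe set gave a stage difference of 1.58 but a knockout effect of 1.05 in preproNK, where WT replicate 2 was below its array's median.

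Slamf6 (Ly108), a self-binding receptor of T and NK cells, had its highest values in KO preproNK. In log2 units, WT ALP had 6.07 and 5.31, KO ALP 6.46 and 5.62, WT preproNK 5.72 and 5.47 and KO preproNK 7.36 and 6.33. The KO preproNK arrays were above the WT preproNK arrays, but the lower of them was below the higher KO ALP array, and the other 3 groups overlapped. The knockout effect in preproNK was 1.25 (95% interval 0.07 to 2.43), with 1.65 and 0.86 in the replicate pairs, and was not called (limma adjusted p = 0.613). Its other probe sets gave 0.58, near background on 7 of 8 arrays, and -0.70 for the same contrast, so they did not share a direction. The stage difference was -0.10 (95% interval -1.28 to 1.08) in WT and 0.81 (95% interval -0.37 to 1.99) in KO.

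Ly9 (CD229), another self-binding receptor, had no difference between groups that was called. The pair from WT ALP read 5.92 and 5.30, KO ALP 6.12 and 5.13, WT preproNK 6.62 and 4.92 and KO preproNK 6.43 and 6.58. The lowest value was that of the narrow array, and the other 3 preproNK arrays were above all ALP arrays. The mean stage difference was 0.52 (95% interval -0.48 to 1.53) with all arrays and 0.95 without the narrow array (limma adjusted p = 0.759 and 0.151). The knockout effect in preproNK was 0.73 (95% interval -0.69 to 2.16), with -0.19 for replicate 1 and 1.66 for replicate 2, and it was -0.12 without the narrow array.

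**Figure D2:**
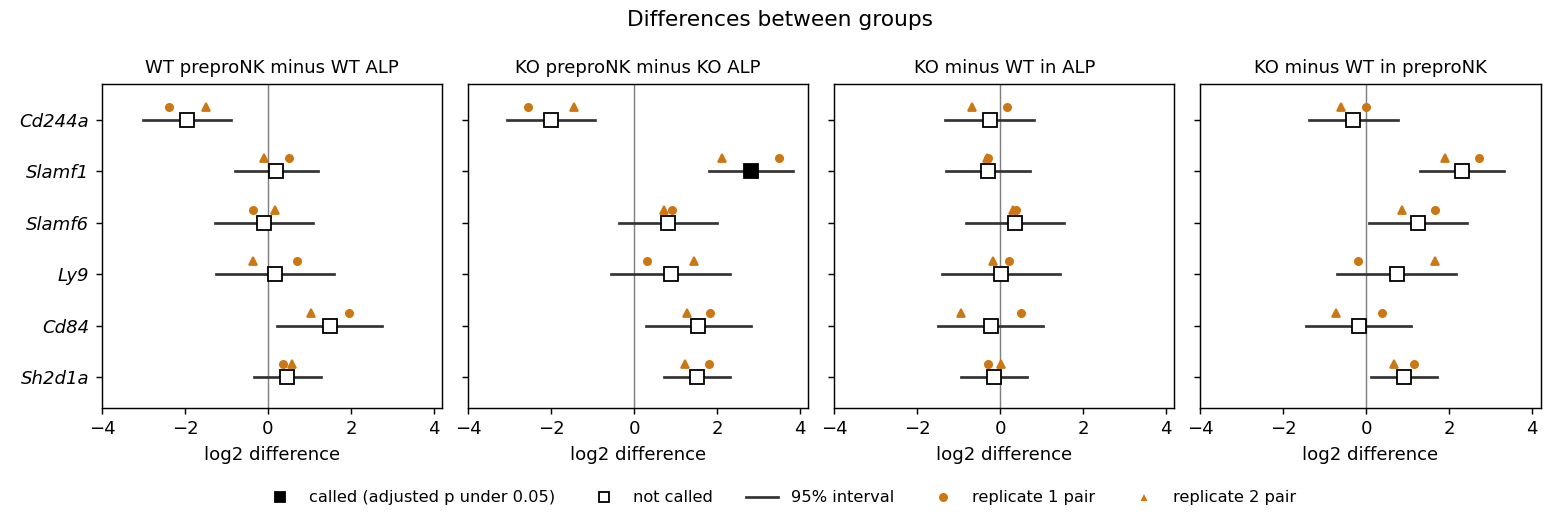
Log2 differences between groups (horizontal axis) for the 6 measured genes in 4 comparisons; squares are fitted differences, filled where called, lines 95% intervals, and orange circles and triangles the differences within replicate 1 and replicate 2. Slamf1 in KO cells is the only filled square, and the 6 intervals for the knockout effect in ALP all include 0.

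For preproNK against ALP in the mean of both genotypes, 2 of the 6 measured members were called, Slamf1 up and Cd244a down, where 3.38% of tested genes were called (1.77% up and 1.61% down). In KO cells 1 of 6 was called, upward, against 1.75% of genes in either direction and 1.22% upward. This was Slamf1, which had passed the filter only through the KO preproNK arrays. In WT cells 0 of 6 were called, against 0.095% of genes. Blocked on the replicate number, 4 of 6 members were called in the mean of both genotypes and 3 of 6 in KO cells. Over all 11583 tested genes, the calls rose from 391 to 852 and from 203 to 449. Slamf1 and Sh2d1a were among the members called with the block in both comparisons. They had passed the filter only through the KO preproNK arrays, so high KO stage differences were built into their passing.

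Without regard to the fit, 2 of 6 members (Cd84 and Sh2d1a) were higher on every preproNK array than on every ALP array, and 1 (Cd244a) was lower on every one, against 4.52% and 6.97% of tested genes. Leaving out the narrow array made it 4 higher (Slamf1 and Ly9 in addition) and 1 lower, against 14.4% and 10.3% of genes. For Sh2d1a and Slamf1 the order of WT preproNK and ALP is one of values below the array medians and shows no difference between them. The median stage difference over the 6 was 0.19 in WT and 1.198 in KO, against -0.05 and -0.004 over all tested genes. Slamf1 and Sh2d1a had passed the filter only through the KO preproNK arrays. High KO stage differences of these genes, which enter the KO median and the counts above, were thus built into their passing. The WT and KO stage comparisons share no arrays with each other, but each shares a group with the comparison of KO and WT preproNK.

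The comparisons of KO with WT gave no call among the members in either population. By limma, 0 of 11583 genes (0%) were called in ALP, in preproNK and for the interaction, and 5, 625 and 183 had an unadjusted p under 0.05. Among the members, 3 of 6 (Slamf1, Sh2d1a and Slamf6) had an unadjusted p under 0.05 in preproNK and 0 of 6 in ALP. Both KO preproNK arrays exceeded both WT preproNK arrays for the same 3 members, against 22.7% of tested genes, and both lay lower for 0 of 6, against 16.5%. Slamf1 and Sh2d1a had passed the filter through these arrays. Without the narrow array it was 4 higher (Cd244a in addition) and 1 lower (Ly9), against 33.1% and 31.9% of genes. The median knockout effect of the 6 was 0.82 in preproNK and -0.19 in ALP, against 0.15 and 0.06 over all tested genes. High preproNK effects of Slamf1 and Sh2d1a, which enter the first median, were built into their passing the filter. Of the remaining members, Slamf6 and Ly9 gave 1.25 and 0.73 in preproNK, and Cd244a and Cd84 -0.31 and -0.18. The preproNK median includes the narrow array and was not computed for the members without it.

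**Figure D3:**
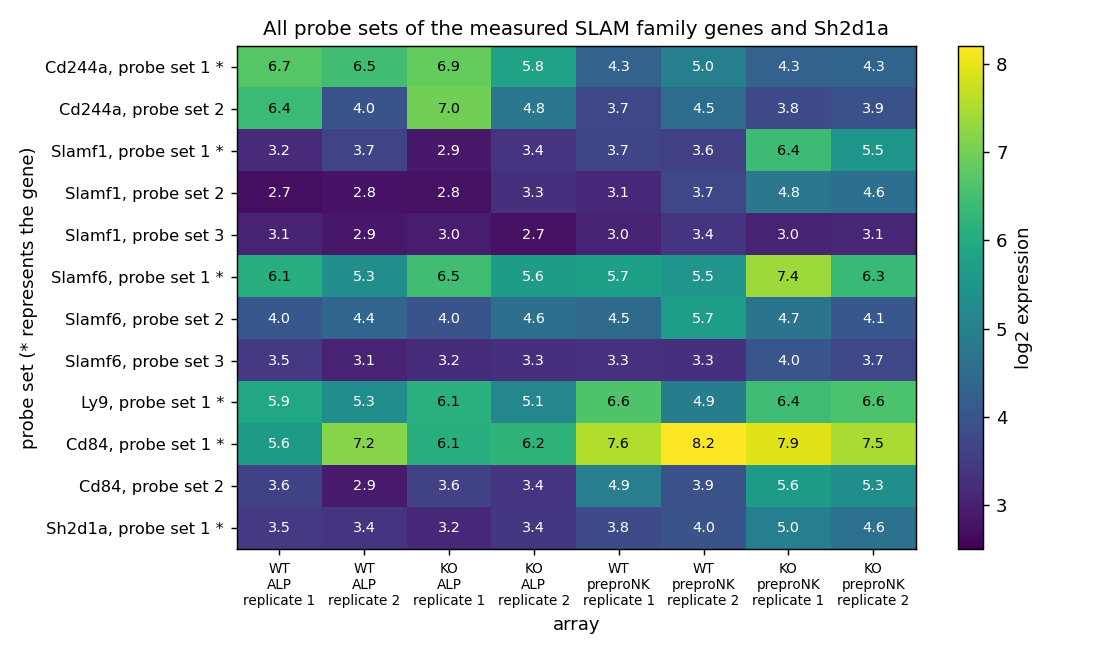
Log2 expression (colour and printed value) of all 12 single-symbol probe sets of the 6 measured genes (rows) on the 8 arrays (columns); an asterisk marks the probe set that represents its gene. Probe sets 1 and 2 of Slamf1 are both highest on the KO preproNK arrays, and both probe sets of Cd244a have their highest value in KO ALP replicate 1.

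Of the 24 signalling partners of SLAM receptors, 19 had a probe set and were tested. In the mean of both genotypes 3 were called higher in preproNK and 1 lower, and in KO cells 2 were called, both higher, where 3.38% and 1.75% of all tested genes were called. Blocked on the replicate number, 5 were called higher and 1 lower in the mean (Ptpn22 and Dok2 in addition) and 4 higher in KO cells (Lat and Ptpn22 in addition). With that block, calls over all 11583 tested genes rose from 391 to 852 in the mean and from 203 to 449 in KO cells. The related receptor gene Cd2 was also called. Cd2, a T and NK cell receptor that binds CD48 in mice, read 4.37 and 5.01 for WT ALP, 3.73 and 4.77 for KO ALP, 7.73 and 5.36 for WT preproNK and 10.02 and 9.56 for KO preproNK. Both KO preproNK arrays were above both WT preproNK arrays, and all preproNK arrays were above all ALP arrays. Its difference between preproNK and ALP was 5.54 (SE 0.76, limma adjusted p = 0.0148) in KO and 1.85 (SE 0.76, limma adjusted p = 0.628) in WT, where it was called without the narrow array (3.04, limma adjusted p = 0.0439). The knockout effect in preproNK was 3.25 (limma adjusted p = 0.436), 2.06 without the narrow array.

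Prkcq encodes protein kinase C theta, which acts with SAP and Fyn in T cells. Values ran from 4.75 to 5.46 over the 4 ALP arrays, and were 8.32 and 6.49 for WT preproNK and 8.35 and 8.10 for KO preproNK. Replicate 1 of WT preproNK was as high as the KO arrays, and the narrow array lay between the populations. The KO stage difference was 3.23 (SE 0.59, limma adjusted p = 0.0424) and the WT one 2.14 (SE 0.59, limma adjusted p = 0.33), which without the narrow array was 3.05 and called (limma adjusted p = 0.0149).

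Zbtb16 encodes PLZF, a factor of innate-like lymphocytes whose induction in NKT cells depends on SLAM and SAP signals. Its stage difference was 2.97 (SE 0.40, limma adjusted p = 0.0137) in KO and 2.15 (SE 0.40, limma adjusted p = 0.148) in WT. The WT difference was 2.35 and not called without the narrow array (limma adjusted p = 0.0509), and called with the narrow array as the only one of its group (limma adjusted p = 0.0426). For Zbtb16 all 4 preproNK arrays (5.95 to 7.29) were above all ALP arrays (3.78 to 4.25). Lat, a membrane scaffold of receptor signalling, was higher in preproNK in the mean of both genotypes (1.77, SE 0.34, limma adjusted p = 0.0376). Plcg2, a phospholipase, was lower (-2.23, SE 0.41, limma adjusted p = 0.0323). Without the narrow array these were 1.99 and -2.21 and called (limma adjusted p = 0.00992 and 0.026). With all arrays neither gene was called in a single genotype, but Lat was called in KO when blocked on the replicate number (2.46, limma adjusted p = 0.00863).

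Most partner calls were lost when 1 array was left out. Leaving out any 1 of the 4 KO arrays ended the KO calls of Cd2, Prkcq and Zbtb16 (limma adjusted p 0.0957 to 0.234, 0.269 to 0.394 and 0.114 to 0.236), and leaving out either WT ALP array ended that of Prkcq (limma adjusted p = 0.0782 each). In the mean of both genotypes, Zbtb16 lost its call only without KO preproNK replicate 1 (limma adjusted p = 0.0546), Cd2 without any 1 of 4 arrays, Prkcq and Plcg2 without any 1 of 5 and Lat without any 1 of 6. For the knockout effect the partners with the smallest unadjusted p were Dok1 (0.42, SE 0.38) and Ptpn11 (0.41, SE 0.44) in ALP, and, beside Cd2, the phosphatase gene Ptpn6 (2.31, SE 0.83) in preproNK. Ptpn6 was at 8.004 and 7.94 in KO preproNK and at 6.75 and 4.57 in WT preproNK, and its difference was 1.22 without the narrow array. The knockout effects of Cd2 and Ptpn6 in preproNK were called in the fit that keeps the narrow array as the only WT preproNK sample (4.43 and 3.40, limma adjusted p = 0.0105 and 0.0226), and not without the narrow array (limma adjusted p = 0.549 and 1). For the interaction they were Cd2 (3.69, SE 1.07) and Lat (1.38, SE 0.68). The median knockout effect over the 19 was 0.87 in preproNK and 0.22 in ALP, against 0.15 and 0.06 over all tested genes. The preproNK median includes the narrow array and was not computed without it.

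**Figure D4:**
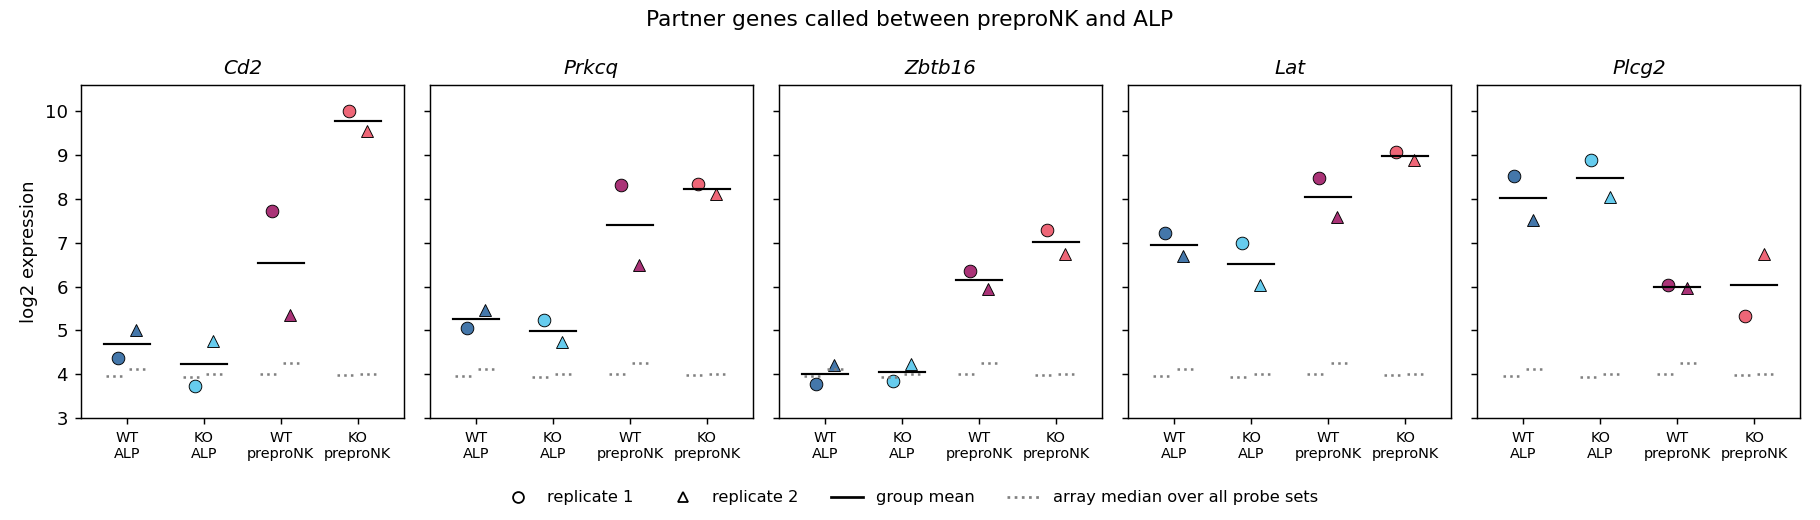
Log2 expression (vertical axis) of Cd2 and 4 signalling partners of SLAM receptors on each array by group; circles are replicate 1, triangles replicate 2, bars group means and dotted lines array medians over all probe sets. Cd2, Prkcq, Zbtb16 and Lat were higher and Plcg2 lower on every preproNK array than on every ALP array.

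The genes with the most similar profiles were found by the root mean square difference over the 8 arrays, after subtracting each gene's own mean. Nearest to Slamf1 were Ptprv (0.18 log2) and Ptgdr2, which encodes the prostaglandin D2 receptor CRTH2 (0.23), where the median over all tested genes was 1.25. Mean levels of Ptgdr2 were 4.01 and 3.97 in the WT and KO ALP groups and 4.81 and 7.01 in the WT and KO preproNK groups. Nearest to Sh2d1a were Snai3 (0.13) and Cdc14b (0.14), and nearest to Slamf6 were Ripor2 (0.18) and Ppcs (0.25). Cd244a was nearest to Pomgnt2 (0.16) and 2900026A02Rik (0.20), Cd84 to Crim1 (0.21) and Zbtb7b (0.26), and Ly9 to Ankrd27 (0.11) and Ap3d1 (0.13). Among the members the closest pair was Slamf6 and Ly9 (0.527), with Slamf6 and Sh2d1a nearly as close (0.534). For Slamf6 and Ly9 the medians over the tested genes outside the members were 0.75 and 0.73, and a flat profile would lie 0.63 from either. The most distant pair was Cd244a and Slamf1 (2.04), although both lie in the same gene cluster.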

How the data were processed

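The deposited values are log2 expression per probe set on 1-colour arrays. Per the submitters' processing notes, RMA and Partek were used to make them. No versions or settings were stated. Per the labels' protocols, RNA was amplified for 23 cycles, which can add spread between arrays. Of 45141 probe sets, 28898 had 1 gene symbol in the platform annotation, 551 had several and 15692 were not listed. Through the Entrez number 28689 matched RefSeq, with 0 symbols changed.

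Where a gene had several probe sets, the one brightest on average stood for it. It was tested if it exceeded the median probe set of the array on 2 or more of the 8 arrays. Values under that median were taken as near background, and a fold against such a group sets them to it. Such an "at least" fold allows for background only, not for the spread between arrays or probe sets. Means of the 4 groups were fitted with limma 3.58.1 (lmFit, eBayes; R 4.3.3; tested on simulated data; 4 residual degrees of freedom). P-values are two-sided, with Benjamini-Hochberg adjustment over 11583 genes, and called means an adjusted p under 0.05. Precision is limited by the number of arrays.

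Named genes are the members, called partners (up to 4 each way, otherwise the 2 with the smallest unadjusted p) and the 2 nearest profiles per member. Ptpn22, Dok2, Cd8a, Eomes, Thy1 and Xist were named after their values were seen. Members, lists and the background rule were chosen with earlier results of these data known. The series design ties replicate numbers to dates, which pairs the samples by date. The main fit did not use this pairing, while the replicate block did. Deviations of replicate 1 arrays from group means correlated at 0.15 to 0.81 between groups. Alternatives were the replicate block, another probe set rule, no filter, repeated quantile normalization, array weights, trended robust moderation, the 2 compared groups alone and leaving out arrays.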

Additional observations from a re-analysis of the deposited data

Results flagged for a closer look

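Slamf1 was singled out because the knockout effect had opposite signs in the populations. It was -0.29 and -0.31 log2 in the replicate 1 and 2 pairs of ALP and 2.72 and 1.91 in those of preproNK, an interaction of 2.61 (SE 0.61). By limma over all genes the interaction was not called (adjusted p = 1, and 0.101 to 1 over the alternatives). The ALP values all lie below the array medians, so their sign is that of values near background. Of the other probe sets of Slamf1, the second gave an interaction of 0.94 and the third, near background on every array, -0.01.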

How the results depend on the processing

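With 2 arrays a group, counts of calls moved with most choices, and the cause was not tested. Leaving out an array also leaves fewer samples, and the counts then fell in some fits and rose in others. For preproNK against ALP in WT, 11 genes were called with all arrays, 6 without a filter on dim values, 73 after repeated quantile normalization, 67 with the replicate block, 1 with array weights, 0 with only the 2 groups compared and 431 with the block and without WT preproNK replicate 2, where 1 member was called in place of 0. In KO, 203 became 449 with the block, 902 with array weights, 1234 with only the 2 groups and 1238 with the block and without that array, and the members called went from 1 to 3, 4, 4 and 3. For the mean of both genotypes, 391 became 852 with the block and 1661 also without that array (4 members each, from 2), and 1 member was called with probe sets averaged, without a filter or with array weights. For KO against WT in preproNK, 0 became 10 with the block and 47 also without that array. Leaving out 1 array at a time gave 0 to 824 genes in WT, 0 to 530 in KO (0 to 3 members), 35 to 1058 for the mean (0 to 4 members) and 0 to 2532 for KO against WT in preproNK (0 to 1 member). Some differences changed sign, none of them called. With probe sets averaged, Slamf6 in WT became 0.27, the knockout effect of Cd244a in ALP 0.22 and that of Cd84 in preproNK 0.44. After repeated quantile normalization, the knockout effect of Ly9 in ALP became -0.11 and the interactions of Cd244a and Cd84 0.17 and -0.38. With the block and without WT preproNK replicate 2, the knockout effect of Cd244a in preproNK became 0.23 and its interaction 0.49. Without 1 array at a time, the WT stage difference ran from -0.039 to 0.44 for Slamf1, -0.48 to 0.28 for Slamf6 and -0.68 to 1.01 for Ly9. The knockout effect in ALP ran from -0.79 to 0.28 for Cd244a, -0.072 to 0.77 for Slamf6, -0.48 to 0.51 for Ly9, -1.002 to 0.55 for Cd84 and -0.037 to 0.86 for Ptpn11. That in preproNK ran from -0.64 to 0.023 for Cd244a, -0.12 to 1.58 for Ly9 and -0.497 to 0.14 for Cd84. The interaction ran from -0.59 to 0.48 for Cd244a, -0.14 to 1.56 for Ly9 and -0.72 to 0.83 for Cd84. The stage differences of Cd244a, Cd84 and Sh2d1a kept their sign in all alternatives run. For Sh2d1a this adds little, since a high KO difference was built into its passing the filter and its WT values all lie below the array medians.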

Other observations

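Of the other relatives of the family, Sh2d1b1 and Slamf9 were tested, with no call in any of the 6 comparisons by limma. Sh2d1b1, which encodes an EAT2 adaptor that pairs with SLAM receptors in NK cells, was above the median on all 8 arrays, with a log2 level of 5.002 and 6.18 in WT ALP, 4.97 and 5.41 in KO ALP, 5.17 and 5.87 in WT preproNK and 5.06 and 5.25 in KO preproNK. Its groups overlapped, and its mean stage difference was -0.05 (95% interval -0.86 to 0.75). Slamf9 lay between 3.79 and 4.72 and Slamf8 between 2.55 and 3.51, the latter below the median on all 8 arrays and not tested. Sh2d1b2 was not analysed here.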
